A study of Mus musculus with 48 samples.

Results

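The genes described here are 10 genes of tissue macrophages and of Kupffer cells, the resident macrophages of the liver. They are Csf1r, Adgre1, Cd68, C1qa, C1qb and C1qc, which macrophages of many tissues use, and Marco, Clec4f, Vsig4 and Cd5l, which are best known from Kupffer cells. A member is every probe set whose single symbol in the platform annotation is 1 of these names, which gave 14 probe sets among the 22626 of the array that are not controls, and 10 of the 12393 genes that have a single symbol. C1qb and Csf1r had 3 probe sets each and the other 8 genes 1 each. The members were chosen by their levels in these samples, in particular by their high values in liver and their low values in the liver samples numbered 1, so tissue levels and that pattern are given as a description with no test.

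RNA of male liver, female liver, male kidney, female kidney, male hypothalamus, female hypothalamus, testis and ovary of healthy mice was measured on 48 Affymetrix arrays. Each of the 8 groups held 3 RNA samples, numbered 1 to 3 in the titles, and 2 arrays were run on each of them and averaged. The RNA was purchased, and each sample was described as a pool of 10 animals. It was polyA-selected for liver, kidney, testis and ovary and total RNA for hypothalamus by 1 field of the labels, while another field gave total RNA throughout, so the kind of RNA and the tissue cannot be told apart where hypothalamus is set against another tissue. Strain and age are not given in the labels. Nothing there states that samples of 1 group are independent pools, so the spread behind the p-values may be technical only.

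Tissue macrophages take up dying cells, debris and microbes. They depend on signals through Csf1r, the receptor for CSF1 and interleukin 34, and they are a main source of C1q, the recognition molecule that starts the classical complement pathway. Kupffer cells sit in the liver sinusoids, where scavenger and complement receptors let them clear particles from portal blood, and microglia are the corresponding cells of the brain parenchyma. In bulk tissue, fewer cells of a type and less RNA per cell cannot be told apart.

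Values are intensities on the arrays' linear scale, with array medians between 163.4 and 276, and they are compared between samples for 1 probe set but not between probe sets. A probe set counted as above the filter where it exceeded the 40th percentile of its array, which lay at most at 185.7, and it was tested where at least 3 RNA samples of the comparison did so. Precision is limited by the 3 RNA samples of each group, since the 2 arrays of a sample were averaged. Over the 24 samples the defining genes of the labelled tissues were highest where the labels put them: all 8 hepatocyte genes above the filter in liver, 7 of 7 kidney genes in kidney, 7 of 7 hypothalamus genes in hypothalamus, 7 of 7 testis genes in testis and 7 of 7 ovary genes in ovary. Liver also held genes of exocrine pancreas, a tissue that lies against it, at a summed intensity of 7207 to 34643 over 6 genes, against 697.0 to 4674 in the samples of the other tissues.

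In the GRCm38.p6 gene table of RefSeq, C1qb, C1qc and C1qa lie next to each other on chromosome 4, between 136880126 and 136898844, with no other gene of that table inside these 18719 bases. Marco lies on chromosome 1, Cd5l on chromosome 3, Clec4f on chromosome 6, Cd68 on chromosome 11, Adgre1 on chromosome 17 and Vsig4 on the X chromosome.

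The table of RefSeq promoters holds 7 of the 10 members, each with 250 bases before and 50 after the start of the gene in GRCm38.p6. All 10 members moved together over the liver samples, as given further on, and Cd68 is in the table as well. Shown here are the promoters of the 4 Kupffer cell genes and of the neighbouring C1qb and C1qc. They read 5′ to 3′ on the strand of the gene, in lower case, with each GAGGAA or its reverse complement TTCCTC in capitals. This is the core of the sites that PU.1, encoded by Spi1, is known to bind in macrophages.
Cd5l (chr3:87357631-87357930, plus strand): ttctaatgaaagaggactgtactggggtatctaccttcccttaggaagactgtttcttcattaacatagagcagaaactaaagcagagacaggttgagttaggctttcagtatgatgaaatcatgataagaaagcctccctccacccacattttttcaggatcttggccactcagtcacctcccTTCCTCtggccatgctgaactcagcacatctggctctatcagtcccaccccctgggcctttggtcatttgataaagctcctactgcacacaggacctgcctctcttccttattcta
Clec4f (chr6:83656067-83656366, minus strand): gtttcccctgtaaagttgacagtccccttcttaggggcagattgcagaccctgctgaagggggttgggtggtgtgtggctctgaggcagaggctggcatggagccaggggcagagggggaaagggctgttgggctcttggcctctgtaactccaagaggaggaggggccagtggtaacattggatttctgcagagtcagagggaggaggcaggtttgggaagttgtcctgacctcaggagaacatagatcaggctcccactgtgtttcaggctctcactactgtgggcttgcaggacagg
Vsig4 (chrX:96293389-96293688, minus strand): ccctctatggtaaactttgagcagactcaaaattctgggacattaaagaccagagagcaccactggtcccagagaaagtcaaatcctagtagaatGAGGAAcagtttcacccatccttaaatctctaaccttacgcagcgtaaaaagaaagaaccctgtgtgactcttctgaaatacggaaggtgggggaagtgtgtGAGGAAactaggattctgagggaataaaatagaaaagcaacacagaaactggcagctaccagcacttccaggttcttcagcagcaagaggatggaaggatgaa
Marco (chr1:120504975-120505274, minus strand): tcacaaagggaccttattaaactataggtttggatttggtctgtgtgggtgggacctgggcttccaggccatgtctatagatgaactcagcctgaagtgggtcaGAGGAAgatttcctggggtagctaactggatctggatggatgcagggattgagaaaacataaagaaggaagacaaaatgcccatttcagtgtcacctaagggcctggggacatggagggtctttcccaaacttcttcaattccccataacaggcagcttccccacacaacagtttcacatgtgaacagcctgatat
C1qb (chr4:136886151-136886450, minus strand): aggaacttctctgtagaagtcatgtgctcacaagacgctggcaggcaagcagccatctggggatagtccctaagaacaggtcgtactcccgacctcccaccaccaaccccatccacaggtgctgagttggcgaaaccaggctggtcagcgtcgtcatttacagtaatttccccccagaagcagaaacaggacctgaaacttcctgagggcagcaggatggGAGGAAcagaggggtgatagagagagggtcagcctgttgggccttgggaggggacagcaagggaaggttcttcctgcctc
C1qc (chr4:136892865-136893164, minus strand): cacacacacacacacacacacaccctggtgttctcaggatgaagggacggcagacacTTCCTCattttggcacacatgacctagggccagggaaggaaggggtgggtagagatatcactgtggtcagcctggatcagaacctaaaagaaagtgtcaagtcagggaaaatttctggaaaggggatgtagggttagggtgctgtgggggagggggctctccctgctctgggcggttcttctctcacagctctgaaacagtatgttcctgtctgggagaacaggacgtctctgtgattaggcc
The 6 letters occurred in 6 of the 7 members in the table, on either strand, and in 28.3% of all 32851 promoters of the same length. Counted from the start of the gene, the matches began at -66 in Cd5l, at -155 and -53 in Vsig4, at -146 in Marco, at -30 in C1qb and at -193 in C1qc. Clec4f held none. AGGTCA, the core letters of many nuclear receptor sites, was searched on both strands as well and was in Clec4f and C1qc, 2 of the 7, against 16.3% of all promoters. In C1qc, which held both, the matches do not overlap. A match of letters is not a measured site.

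The 4 Kupffer cell genes were bright in all 6 liver samples and at or near the floor of the arrays elsewhere. Cd5l encodes a secreted scavenger-receptor-like protein that tissue macrophages make. Its intensity was 5125, 7424 and 6579.5 in male and 7563.5, 8471 and 9905 in female liver. Outside liver its 18 values lay between 53.2 and 157.7. None of those 18 was above the filter, and the mean over liver was 74.4 times that of ovary, the next tissue. Clec4f, a C-type lectin of Kupffer cells in the mouse, had 3104.5, 4672 and 5389 in male and 3973, 4268 and 6316 in female liver. It had 36.3 to 188.9 outside liver, where 5 of 18 samples passed the filter. Vsig4, a complement receptor of the immunoglobulin superfamily, had 2229, 4012 and 3309 in male and 3399, 3744 and 4646 in female liver. Elsewhere it reached 91.0 to 209.5, with 8 of 18 samples above the filter.

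Marco is a scavenger receptor for bacteria and particles. It measured 540.3, 2822 and 1878 in male and 750.4, 2645.5 and 3997 in female liver. In the other 18 samples it lay between 17.2 and 119.7, with none above the filter. Liver did not overlap with any other tissue for these 4 genes, and each of the other tissues overlapped with the next in the order of means. For Marco, kidney with 64.3 to 119.7 lay above testis with 17.2 to 58.7, all of them under the filter. Since these values are near the floor of the arrays, the ratios of liver to the next tissue, 74.4 for Cd5l, 34.2 for Clec4f, 22.6 for Marco and 21.2 for Vsig4, depend on the background of each probe set.

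**Figure D1:**
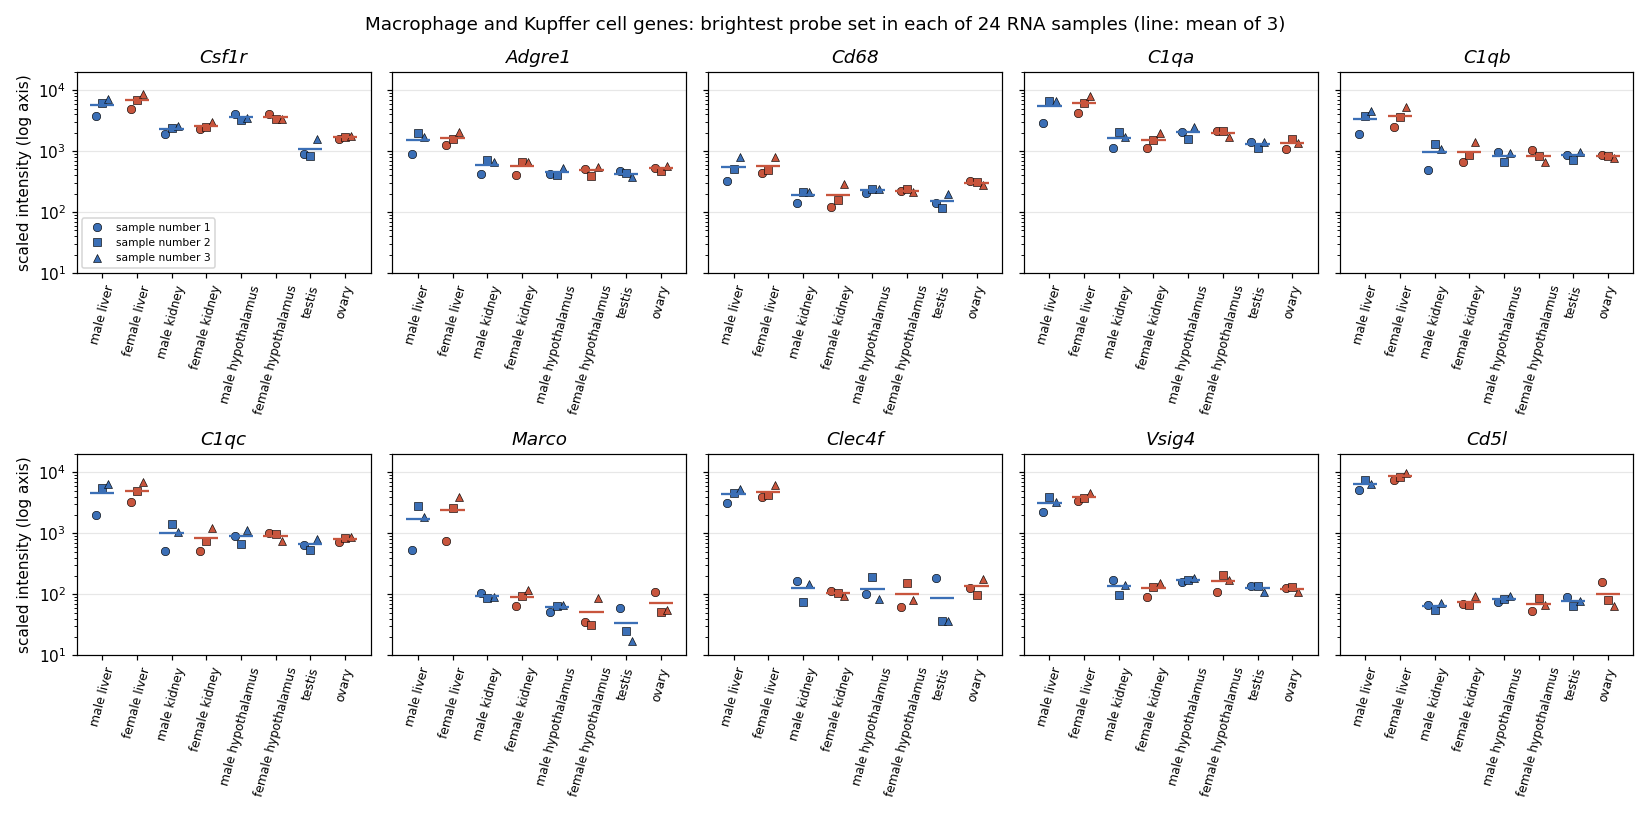
Scaled intensity (log axis) of the brightest probe set of each member in the 24 RNA samples, by group, with male or testis in blue and female or ovary in red, a marker shape for each sample number and a line at the mean of 3. Marco, Clec4f, Vsig4 and Cd5l stay below 210 outside liver, while Csf1r reaches 4084 in hypothalamus.

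The 6 genes of macrophages at large were measured in every tissue. Csf1r had 3818, 6246 and 7072 in male and 4947, 6998 and 8723 in female liver. Hypothalamus came next, with 4084, 3264.5 and 3545 in males and 4048, 3365 and 3313 in females, followed by kidney with 1903 to 2958, ovary with 1606.5 to 1751 and testis with 834 to 1570.1. For this probe set, the brightest, only liver and hypothalamus overlapped among the neighbours in this order, through male liver 1. The difference between liver and hypothalamus was 0.75 on the log2 scale after scaling to a trimmed mean, 0.21 after quantile normalization and 1.22 after median centring, so its size depends on how arrays of different tissues are put on 1 scale. The 2 other Csf1r probe sets followed the first with a correlation of 0.982 and 0.943 over the 24 samples, a description with no test. In the former, kidney also overlapped with ovary. In the latter, liver did not overlap with hypothalamus, and kidney, with a mean of 560.8, overlapped with ovary at 569.4 and with testis.

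Adgre1, the adhesion receptor F4/80, had 902, 2018 and 1684 in male and 1248, 1567 and 2065 in female liver, all above the 374.5 to 722 of the other tissues. Kidney, ovary, hypothalamus and testis overlapped in their order, with means of 589.8, 523.6, 467.5 and 423.9. Cd68, a lysosomal glycoprotein of phagocytes, had 328.0, 514.8 and 807.0 in male and 440.9, 484.5 and 811.9 in female liver. Ovary followed with 280.0 to 326.5, its highest sample just under male liver 1. Next came hypothalamus with 208.9 to 242.9, kidney with 122.1 to 292.3 and testis with 115.0 to 201.4, and kidney overlapped with ovary, hypothalamus and testis.

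C1qa, C1qb and C1qc encode the A, B and C chains of C1q. C1qa had 2852, 6774 and 6675 in male and 4304, 6215 and 7927 in female liver. C1qc had 2014.5, 5509.5 and 6379 in male and 3227, 4920.0 and 6951 in female liver. The brightest C1qb probe set had 1916, 3797.5 and 4513 in male and 2499, 3570.1 and 5263 in female liver. Outside liver the highest sample of the 3 genes was 2447, 1446 and 1403 for C1qa, C1qc and C1qb, below every liver sample. The other 4 tissues overlapped with their neighbours in the order of each gene.

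The 3 C1qb probe sets differed. The one with the lowest mean in liver has a name ending in _x_at, a mark of possible cross-hybridisation. It was at 405.7 in male liver 1 and at 365.4 in female liver 1, below all 3 testis samples at 453.7, 687.2 and 520.7. Its correlation with the brightest was 0.733 over 24 samples and 0.908 over the 6 liver samples. The other _x_at probe set had 360.3 and 396.6 in these liver samples and reached 405.4 in female hypothalamus 2. By the brightest probe set, 9 of the 10 genes had all 6 liver samples above the other 18, Csf1r being the exception, and by all probe sets 10 of 14. Among the 18085 probe sets above the filter the share was 6.17%. The choice of members used these levels, so nothing is read from that difference.

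A wider set of 50 macrophage and myeloid genes, listed with earlier results of these data known, held 44 genes above the filter. Of these, 33 had their highest mean in liver, 4 in hypothalamus, 2 in kidney, 2 in testis and 3 in ovary. All 6 liver samples lay above the other 18 for 15 of them. Of these, 2 are named that were chosen after their values were seen. Clec1b, a C-type lectin receptor, had 530 to 1661 in liver and 9 to 102 elsewhere. Fcna, the secreted lectin ficolin A, had 1859 to 2501 in liver and 109 to 235 elsewhere. Aif1 was an exception, with 5779, 6281 and 2009 in testis and 306 to 1266 in liver. Microglia genes were not led by liver: of 5 above the filter, 3 were highest in hypothalamus, 1 in kidney and 1 in ovary.

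Over the 24 samples, the mean profile of Csf1r, Adgre1, Cd68 and the C1q genes was most like those of Tyrobp with r = 0.980, Slc11a1 with 0.978, Lcp2 with 0.974, Adamdec1 with 0.970 and Mpeg1 with 0.969, among 10732 genes. Tyrobp and Lcp2 are signalling adaptors, Slc11a1 a metal transporter of phagosomes, and Mpeg1 a pore-forming protein of macrophages. The profile of Marco, Clec4f, Vsig4 and Cd5l was most like those of Lect2 with 0.993, Cyp2c50 with 0.992, Pglyrp2 with 0.992, Adgre4 with 0.992 and Apon with 0.991. Adgre4 is a myeloid relative of Adgre1, while Lect2, Cyp2c50 and Pglyrp2 are known as products of hepatocytes. These correlations describe points that share their tissue and carry no test.

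Within liver, the samples numbered 1 were the lowest for the members in both sexes. Marco had 540.3 in male liver 1, against 2822 and 1878 in male liver 2 and 3, and 750.4 in female liver 1, against 2645.5 and 3997 in female liver 2 and 3. Its ratio of number 1 to the mean of numbers 2 and 3 was 0.230 in males and 0.226 in females, the lowest of the 10 genes in either sex. C1qc followed with 0.339 in males and 0.544 in females, C1qa with 0.424 and 0.609, and C1qb with 0.461 and 0.566. The ratio was 0.487 in males and 0.687 in females for Adgre1, 0.496 and 0.680 for Cd68, and 0.573 and 0.629 for Csf1r. The remaining Kupffer cell genes were closest to their neighbours, with 0.617 in males and 0.751 in females for Clec4f, 0.609 and 0.810 for Vsig4, and 0.732 and 0.823 for Cd5l.

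Number 1 was the lowest of the 3 samples for 10 of 10 genes in males and 10 of 10 in females. Counted over both sexes, male liver 1 and female liver 1 were the 2 lowest of all 6 for 8 genes. The exceptions were Vsig4 and Cd5l, where female liver 1 lay above male liver 3. Of all 13857 probe sets tested in liver 12.3% showed this order. The samples numbered 2 were the lowest pair for none of the 10 genes, and so were the samples numbered 3, which were the highest pair for 5 genes, Csf1r, Cd68, C1qb, C1qc and Clec4f, against 7.53% of all probe sets. The median log2 difference of number 1 from numbers 2 and 3 was -0.74 over the members and 0.06 over all tested probe sets. The deviations of the 10 genes from the means of their sex correlated with r of 0.728 to 0.994 over the 6 liver samples, with a median of 0.933 over the 45 pairs of genes.

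In kidney the same number was lowest. C1qc had 517.6 in male kidney 1, against 1446 and 1056.5 in male kidney 2 and 3, and 519.1 in female kidney 1, against 762.8 and 1233 in female kidney 2 and 3. C1qb had 494.5, against 1309 and 1080.9, in male kidney and 653.7, against 851.3 and 1403, in female kidney. For all 6 pan-macrophage genes both kidney samples numbered 1 lay below the other 4, so 6 of the 7 genes tested showed this order, against 13.3% of all probe sets. The exception was Vsig4, which stayed between 91.0 and 172.5 in kidney. Csf1r moved least, with ratios of 0.759 in males and 0.843 in females.

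Hypothalamus did not share the order. There both samples numbered 1 were the 2 lowest for 1 of the 7 genes tested, Vsig4, against 15.6% of all probe sets. In the gonads, C1qc had 640.7, 540.1 and 805.6 in testis and 716.2, 834.5 and 864.7 in ovary.

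**Figure D2:**
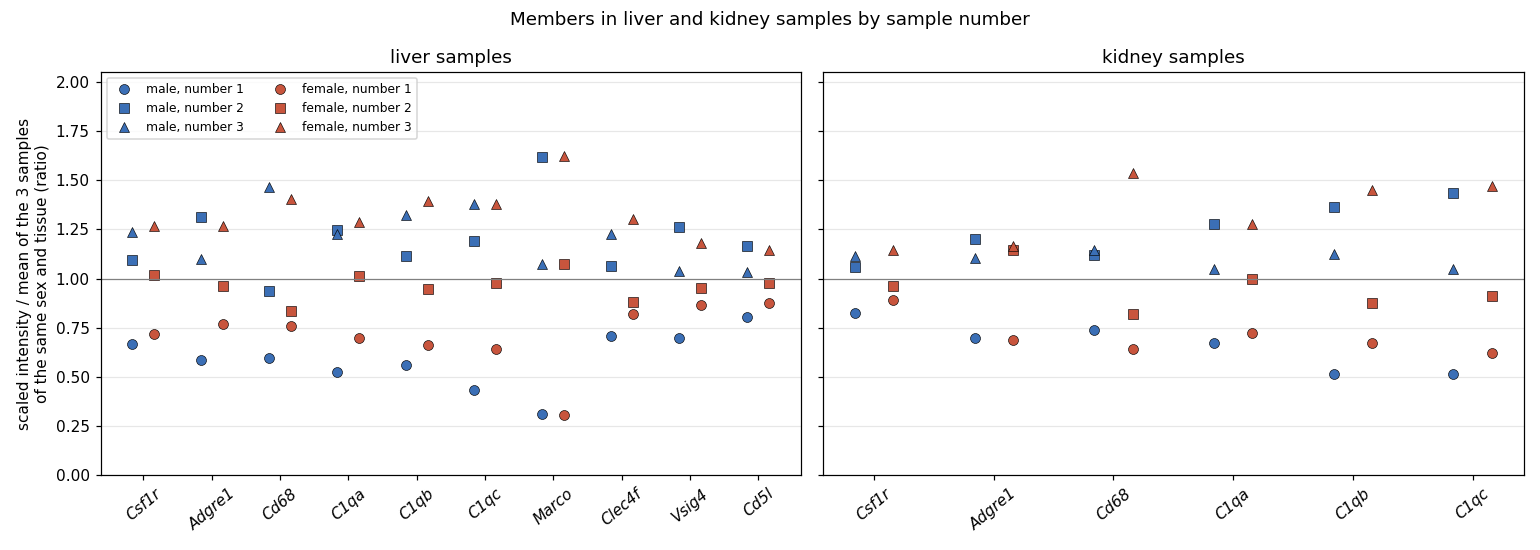
Scaled intensity of each member divided by the mean of the 3 samples of the same sex and tissue (ratio), in liver (left) and in kidney for the 6 genes of macrophages at large (right), with male samples in blue, female samples in red and a marker for each sample number. Circles, the samples numbered 1, are the lowest of their sex in every column, and Marco lies farthest down.

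Genes of other immune cells moved along the same numbers. The summed intensity of 11 genes of MHC class II and dendritic cells was 8550.2 in male liver 1, against 36485.5 and 37711 in male liver 2 and 3, and 9088 in female liver 1, against 37478 and 52862 in female liver 2 and 3. In kidney it was 10406, against 38257 and 47679.6, in males and 12664.5, against 36279.6 and 39608, in females. Cd74, the invariant chain of MHC class II, was 2640.0 in male liver 1 and 3108.5 in female liver 1, and 14383 to 17326 in liver 2 and 3 of both sexes. For this list, both samples numbered 1 were the 2 lowest for 7 of 9 genes tested in liver and 9 of 9 in kidney, and the median log2 difference was -1.87 in liver and -1.56 in kidney. For T and NK cells the counts were 7 of 10 in liver and 7 of 8 in kidney, with medians of -0.77 and -0.67.

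The wider macrophage list gave 26 of 42 genes in liver and 25 of 35 in kidney, with medians of -0.77 and -0.44. Of this list Lyz2, the lysozyme of macrophages, was 1268 in male liver 1 and 1960.4 in female liver 1, and 4214 to 6342 in the remaining 4. For neutrophils and monocytes the counts were 0 of 11 genes in liver and 5 of 7 in kidney, while 9 of 11 and 7 of 7 were lower on average in number 1, with medians of -0.33 and -0.55. For B and plasma cells they were 6 of 7 in liver and 3 of 4 in kidney, with medians of -0.41 and -0.98. S100a8, a calcium-binding protein of neutrophils, was lowest in male liver 1, at 821, and highest in female liver 1, at 6297, with 2926 to 4459 in the remaining 4. Of the stromal lists, sinusoidal and other endothelium gave 0 of 13 genes in liver, with 6 of 13 lower on average and a median of 0.01. Stellate cells and fibroblasts gave 6 of 10 in liver, with 8 of 10 lower on average and a median of -0.23, and 1 of 11 in kidney, with a median of -0.17.

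Hepatocyte genes summed to 144242 in male liver 1, against 158271 and 165115 in male liver 2 and 3. In female liver 1 they summed to 146347, against 156504 and 142499 in female liver 2 and 3. Taken gene by gene, both liver samples numbered 1 were the 2 lowest for 3 of 8. On average 6 of 8 were lower in number 1, with a median of -0.12, against 0.06 over all tested probe sets. The 6 genes of exocrine pancreas summed to 27708 in male liver 1, against 7207 and 34643 in male liver 2 and 3, and to 27245 in female liver 1, against 12673 and 12662 in female liver 2 and 3. Their part in the low values of the members was not tested. The ratio of the 3′ to the 5′ control probe sets of Gapdh, a sign of RNA integrity, was 0.794 in male liver 1, against 0.904 and 0.849 in male liver 2 and 3, and 0.844 in female liver 1, against 0.798 and 0.867 in female liver 2 and 3. That of actin was highest in number 1 in both sexes, with 1.104 against 1.084 and 1.018 in male liver and 1.134 against 1.09 and 1.051 in female liver. In kidney it was 1.231 in number 1, against 1.186 and 1.123, in males and 1.218, against 1.332 and 1.162, in females. The part of RNA quality in the low values of the members was not tested. The 5 genes whose deviations within liver were most like the mean of the members were Ptpn22, Pim1, Mcm5, Lcp2 and Dbnl, with r of 0.9969 to 0.9995 over 6 samples among 8581 genes, a description only.

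**Figure D3:**
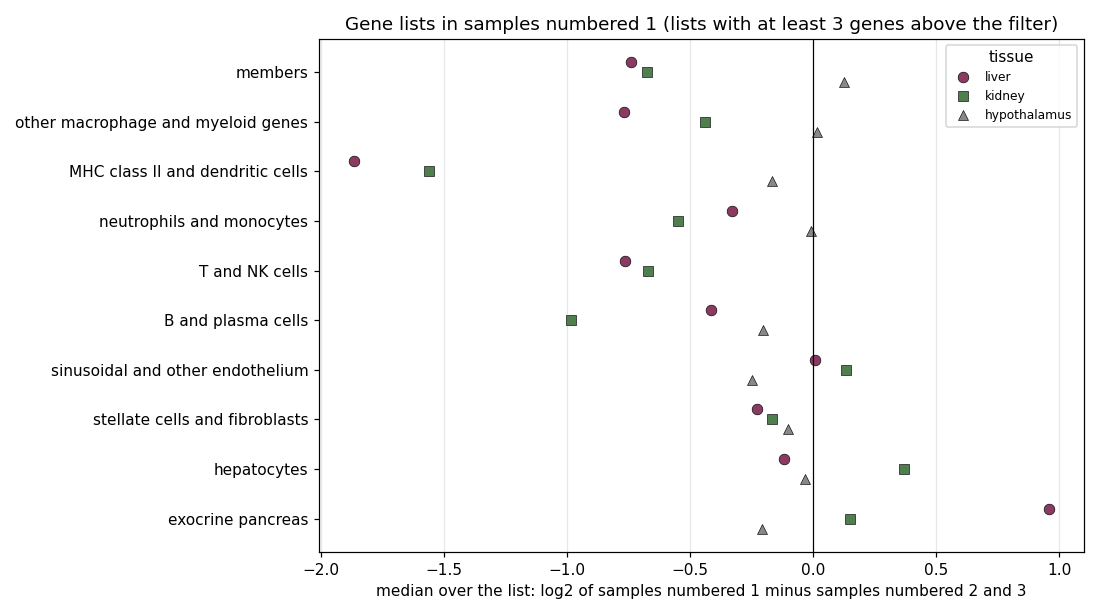
Median over the genes of each list of the log2 difference between the samples numbered 1 and those numbered 2 and 3 of both sexes, in liver (circles), kidney (squares) and hypothalamus (triangles). The list of MHC class II and dendritic cells lies at -1.87 in liver, the members at -0.74, endothelium at 0.01 and exocrine pancreas at 0.96.

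The comparison of males with females within a tissue asks which transcripts differ by sex, the subject of the series' title. In liver no member passed the test: 0 of 10 genes had an adjusted p under 0.05 in limma, against 7 of 13857 probe sets, 0.0505%. With the sample number as a block, 0 members and 11 probe sets passed. Cd5l, with 5125, 7424 and 6579.5 in male and 7563.5, 8471 and 9905 in female liver, was the 1 gene whose groups did not overlap, against 6.09% of all probe sets. Its log2 difference, male minus female, was -0.44 ± 0.18 (SE), with an unadjusted p of 0.0377 and an adjusted p of 1 in limma. It was also the 1 member at an unadjusted p under 0.05, against 1.96% of all probe sets. The difference was negative in each of the 3 pairs of samples with the same number, at -0.55, -0.19 and -0.58.

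By their brightest probe sets, the other 9 genes also had negative differences in liver, with overlapping groups. They ran from -0.11 ± 0.32 for Cd68 to -0.47 ± 0.71 (SE) for Marco, and adjusted p in limma was 1 for each. The C1qb probe set with the lowest mean in liver went the other way, with a mean of 685.9 in male and 652.2 in female liver. Vsig4 averaged 3183 ± 898 in male and 3929.7 ± 644 in female liver (SD, n = 3 each), a log2 difference of -0.33 ± 0.23 (SE). Csf1r averaged 5712 ± 1691 in male and 6889 ± 1891 in female liver, with -0.28 ± 0.28. The median over the 10 genes was -0.22, against -0.01 over all probe sets. By its brightest probe set, Csf1r was also lower in males in each of the 3 pairs. The differences were -0.37, -0.16 and -0.30 for liver, then -0.26, -0.02 and -0.20 for kidney. Its 2 other probe sets did not show this in every pair. For 1 of them, male kidney 2 had 788.1, above female kidney 2 with 564.7. For the other, male kidney 3 had 659.7, above female kidney 3 with 561.8. That probe set was also slightly higher for male liver 2, with 2137.2, than for female liver 2, with 2110.7. Males were lower in the remaining pairs of both. By the brightest probe sets, the liver differences of Csf1r, Vsig4 and Cd5l were negative under all 17 alternatives. Their highest values were -0.01, -0.09 and -0.29, and none passed. The sign of the median did change with single samples. Without male liver 1 the median was 0.18 and 7 of 10 genes were positive, and without female liver 3 it was 0.03. Without both samples numbered 1, an alternative chosen after seeing the data, the median stayed negative at -0.07 and 0 genes passed.

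In the wider macrophage list 0 of 42 genes passed in liver and 1 had an unadjusted p under 0.05. This was Cd163, the haemoglobin scavenger receptor, with 144.6, 105.5 and 97.8 in male and 208.8, 234.1 and 259.5 in female liver. These groups did not overlap, and 1 of 3 male samples was above the filter. The neutrophil and monocyte genes summed to 3528 to 13586 in male and 9603 to 17711 in female liver. Taken gene by gene, their log2 differences had a median of -0.48 over 11 genes. Their part in the signs of the members was not tested.

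In kidney 7 of the 10 members were above the filter, and 0 passed in limma, against 32 of 13857 probe sets, 0.231%. With the sample number as a block, 0 members and 137 probe sets passed. None had an unadjusted p under 0.05, against 4.84% of all probe sets, and none had groups that did not overlap, against 9.54%. The largest difference was that of C1qc, with 517.6, 1446 and 1056.5 in male and 519.1, 762.8 and 1233 in female kidney, at 0.22 ± 0.39 (SE) and an adjusted p of 1.00 in limma. Csf1r had 1903, 2443.5 and 2569.7 in male and 2293, 2483 and 2958 in female kidney, at -0.16 ± 0.17. The signs were positive for 5 genes and negative for 2, and the median was 0.05, against -0.01 over all probe sets.

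In hypothalamus 0 of the 7 genes tested passed in limma, against 7 of 13802 probe sets, 0.0507%. None had an unadjusted p under 0.05, against 2.27%, and groups overlapped for all 7, against 6.36% of probe sets without overlap. Csf1r, which microglia express, averaged 3631 ± 417 in male and 3575 ± 410.2 in female hypothalamus (SD, n = 3 each), a log2 difference of 0.02 ± 0.12 (SE). The differences of the 7 genes lay between -0.09 ± 0.13 for Adgre1 and 0.09 ± 0.15 for Vsig4, with SEs of 0.09 to 0.19. Marco and Cd5l were below the filter in all samples of kidney and hypothalamus, and Clec4f was above it in fewer than 3 samples of either, so these genes were not tested there.

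The male-female difference was compared between tissues by interaction terms in 1 fit of liver, kidney and hypothalamus. Of the 10 members, 7 were tested in all 3 tissues. For 0 of these 7 did any of the 3 interactions pass in limma, against 51 of 16907 probe sets, 0.302%, and 0 had an unadjusted p under 0.05, against 7.54% of all probe sets. The 16907 were not limited to probe sets tested in all 3 tissues. Csf1r, for example, had a difference in liver minus that in hypothalamus of -0.30 ± 0.31 (SE), with an adjusted p of 1 in limma. With the sample number as a block, its unadjusted p was 0.0469 and its adjusted p 0.9975 in limma. Marco, Clec4f and Cd5l entered that fit through liver, and their values in kidney and hypothalamus were too low for a sex difference to be compared.

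**Figure D4:**
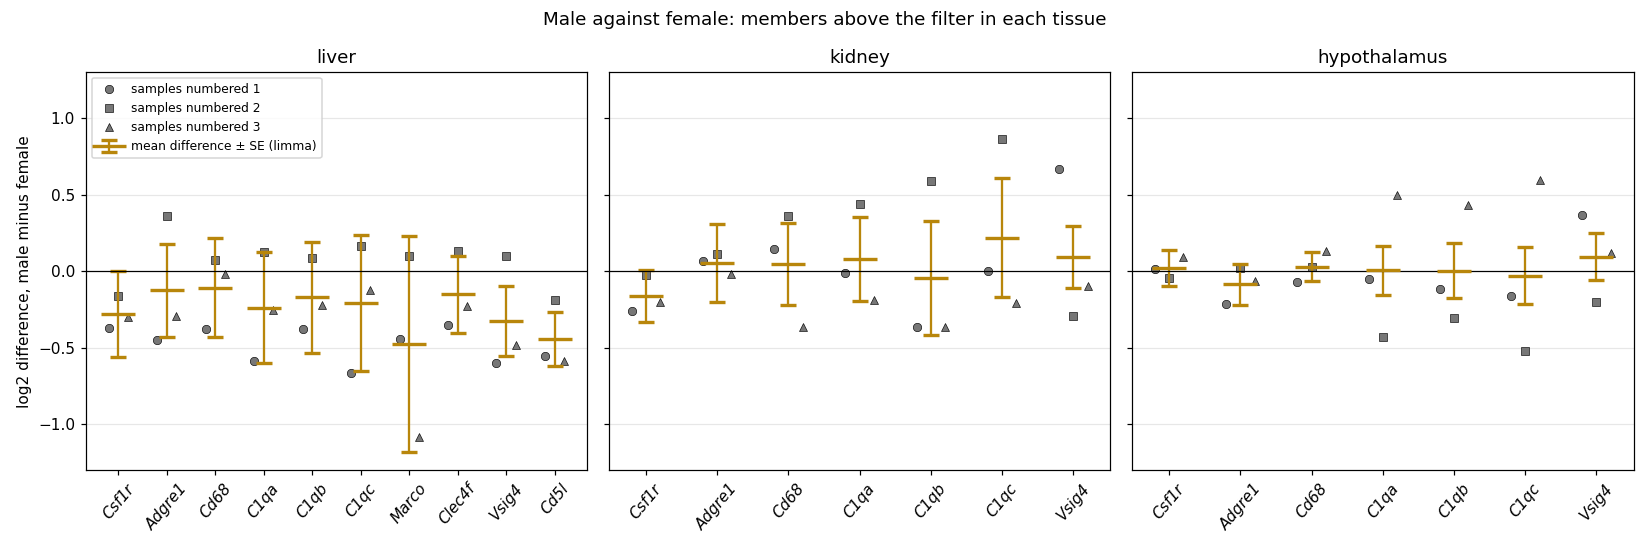
Log2 difference of male minus female for the members tested in liver, kidney and hypothalamus: grey markers show the pairs of samples with the same number, gold bars the mean difference with its SE from limma. In liver the means lie between -0.47 and -0.11, and the pair numbered 2 is positive for 8 of 10 genes.

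Testis was compared with ovary, where 6 members were above the filter, the 4 Kupffer cell genes not being tested. Cd68 had 141.0, 115.0 and 201.4 in testis and 326.5, 305.8 and 280.0 in ovary, groups that did not overlap, and a log2 difference of -0.83 ± 0.19 (SE, adjusted p = 0.00280 in limma). Csf1r had 911, 834 and 1570.1 in testis and 1606.5, 1707 and 1751 in ovary, again without overlap, at -0.64 ± 0.23 (SE, adjusted p = 0.0293 in limma). Its 2 other probe sets gave -0.55 each and passed as well. These 2 of 6 genes passed, against 70.5% of all 14962 probe sets in either direction and 45.6% in the direction of testis lower. The groups did not overlap for 74.6% of all probe sets.

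The other 4 genes did not pass. Adgre1 averaged 423.9 ± 45.7 in testis and 523.6 ± 44.4 in ovary (SD, n = 3 each), with a log2 difference of -0.26 ± 0.16 (SE). C1qc had -0.27 ± 0.18, C1qa -0.00 ± 0.18 and C1qb 0.04 ± 0.16. The C1qb probe sets disagreed here too. The one dimmest in liver had 453.7, 687.2 and 520.7 in testis and 282.4, 406.8 and 390.3 in ovary. It gave 0.56 ± 0.20 (adjusted p = 0.0302 in limma), and the third, dimmer in both gonads, gave -0.02 ± 0.15. Testis 3 was the highest of its group for Csf1r and Cd68, and without it 3 genes passed, Cd68, Csf1r and C1qc. Leaving out any of the other 5 samples left 1 gene past the threshold.

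The direction over all probe sets depended on the scaling of the arrays. The median over all tested probe sets was -0.35 after scaling to a trimmed mean, with 3718 higher and 6823 lower in testis among those that passed. It was -0.12 after quantile normalization, with 4686 higher and 5720.0 lower, and 0.05 after median centring, with 5363 higher and 4906 lower. Under median centring C1qb passed as higher in testis, at 0.47 ± 0.16, and neither Cd68 nor Csf1r passed, at -0.46 ± 0.20 and -0.20 ± 0.25. Relative to the median of all probe sets, Cd68 lay at -0.49, -0.36 and -0.52 and Csf1r at -0.30, -0.58 and -0.26 under the 3 scalings in this order. The other 4 genes lay above that median under each of the 3, with C1qb highest at 0.38, 0.30 and 0.42.

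**Figure D5:**
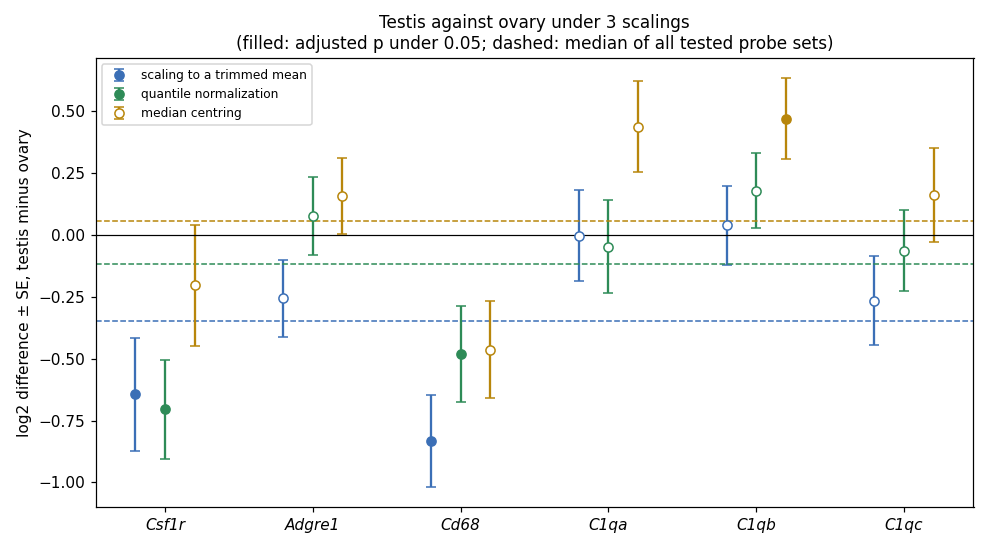
Log2 difference of testis minus ovary with its SE from limma for the 6 members tested, under scaling to a trimmed mean (blue), quantile normalization (green) and median centring (gold), with filled circles for an adjusted p under 0.05 and dashed lines for the median of all tested probe sets. Cd68 and Csf1r lie below the dashed line of their colour under all 3 scalings, and the other 4 genes above it.

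Of the wider macrophage list 35 genes were tested in testis against ovary, and 2 passed as higher and 18 as lower in testis under the scaling to a trimmed mean. The 18 are near the 45.6% of all probe sets that were lower in testis. Under 2 other scalings, applied to this list after seeing the data, 5 passed as higher and 14 as lower with quantile normalization, and 6 as higher and 12 as lower with median centring. The 4 lowest p values belonged to Slc40a1, Cebpb, Fcgr3 and Aif1. Cebpb, a transcription factor of myeloid and other cells, had 99.1, 186.6 and 159.0 in testis and 1787, 1545 and 1887 in ovary. Slc40a1, the iron exporter ferroportin, had 132, 137 and 147 in testis and 873, 1063 and 1135 in ovary. Aif1, a protein of macrophages and microglia, had 5779, 6281 and 2009 in testis and 152, 152 and 116 in ovary, and Fcgr3, an Fc receptor, 804.7, 812.4 and 790.2 in testis and 183.2, 210.0 and 194.4 in ovary. Endothelial genes passed as lower in testis in 10 of 12 tested, against 45.6% of all probe sets. Their median was -1.47, against -0.35 over all probe sets. Genes of stellate cells and fibroblasts passed as lower in 10 of 11, with a median of -2.33. The part of either list in the values of Cd68 and Csf1r was not tested.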

How the data were processed

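The deposited table held 1 intensity per probe set and array on a linear scale. The software that made it is not given in the sources used here, and the deposited intensities shared a trimmed mean of 500.11 to 500.23 per array, so the authors had scaled each array as a whole. The 2 arrays of an RNA sample correlated with r of 0.966 to 0.990 and were averaged. Samples were grouped by tissue, sex and number from their titles. Probe sets were named from the platform annotation, which gave 20380 a single symbol, 691 several and 1555 none, and 64 control probe sets were left out of the tests.

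Intensities were scaled to the common trimmed mean, and log2 was taken after adding 48.08 to each value (the pseudocount, set at the 20th percentile), so fold changes of dim probe sets are understated. Tests were two-sided limma fits (limma 3.58.1 in R 4.3.3) over all probe sets above the filter, with Benjamini-Hochberg adjustment over all of them and a threshold of 0.05. The brightest probe set stood for a gene. The fits were tested on simulated data. Drawings and summaries used Python 3.11.15.

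The members and the lists of other cell types were chosen with earlier results of these data known. Beside the members, the text names up to 4 genes of a list with the lowest p, the 3 brightest genes of a list, and the 5 genes most like a profile. Clec1b, Fcna, Lyz2 and, for its liver values, Aif1 were chosen after their values were seen. Alternatives were other pseudocounts, no filter, quantile normalization, median centring, either array alone, the sample number as a block, an intensity trend, all 8 groups in 1 fit, and leaving out each sample. The correlation of same-numbered samples' deviations between the sexes was 0.535, 0.138 and 0.480 for numbers 1 to 3 in liver and 0.591, 0.424 and 0.627 in kidney. The main fits did not pair the samples, and the number entered only as a block among the alternatives.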

Additional observations from a re-analysis of the deposited data

How the results depend on the processing

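In liver, kidney and hypothalamus and for the interactions, 0 members passed in limma under each alternative run. In testis against ovary 2 members passed, 1 to 3 when 1 sample was left out, and 1 under median centring. That 1 was C1qb, higher in testis, while Cd68 and Csf1r stayed lower in testis without passing. The cause was not tested. With the replicate block, the count of members that passed was 0 for each of the 3 tissues with both sexes and 2 for testis against ovary, so the block changed no call. Same-number correlations were 0.389, 0.099 and 0.326 in hypothalamus, against -0.396 to 0.089 for unlike numbers. For testis against ovary they were 0.041, 0.146 and 0.042, against -0.086 to 0.033 for unlike numbers. In liver, male 2 correlated at 0.288 with female 3 and at 0.138 with female 2, so the numbers do not clearly pair all samples there.

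Counts over all probe sets moved more. In liver 7 passed, against 4 with 4 times the pseudocount, 4 with no filter, 11 with the block, 24 with all 8 groups in 1 fit and 4 to 7 with 1 sample left out. In kidney 32 passed, against 137 with the block, 130 with all 8 groups in 1 fit and 15 to 53 with 1 sample left out. For the interactions 51 passed, against 102 with the block, 32 with the first arrays only and 33 to 98 with 1 sample left out. Without both samples numbered 1, chosen after seeing the data, 4 passed in liver, 16 in kidney and 2 in hypothalamus.

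Over the alternatives, member differences had the other sign for liver in 18 of 170 values, for kidney in 20 of 119, for hypothalamus in 24 of 116 and for testis against ovary in 10 of 96. Liver had the highest mean in 60 of 60 alternatives for the levels.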
